A study of Mus musculus with 38 samples.

Results

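Wfdc16, Atoh8, Fam20c, Pdgfa, Cd79b and Shroom1 are 6 of the 21441 mouse genes listed in the expression tables of an intestinal vitamin D study. They were chosen by measured values, namely a rise after 1,25(OH)2D3 (calcitriol, the hormonal form of vitamin D) that was larger in intestinal crypts than in villi. Their crypt and villus FPKM responses thus served the choice and are given as a description, without tests. The stated choice did not use the colon values, and these were tested. The members were, however, chosen with earlier results of these data known.

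All mice were wild type, of the C57BL6/J strain and vitamin D deficient. They received either 1,25(OH)2D3 by intraperitoneal injection at 10 ng per g body weight or 0.1 ml of vehicle, a mix of propylene glycol and ethanol, and were killed after 4 h. Ages are given as 10 to 13.3 weeks in the sample labels and as 12 to 14 weeks in the treatment protocol, and sex as males and females pooled. The labels do not say how many mice each library pools, and a p-value here covers the variation between libraries only. The upper small intestine supplied villi and crypts, which EDTA freed and a filter separated, while colon tissue came from its whole length. Vehicle gave 6 libraries in each tissue. 1,25(OH)2D3 gave 7 in villi, 6 in crypts and 7 in colon. Deficient animals given one dose show the early response to the hormone and not the state of vitamin D sufficient animals.

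The vitamin D receptor is a nuclear receptor that binds 1,25(OH)2D3, pairs with the retinoid X receptor and acts on genes through DNA elements that are often direct repeats of a hexamer. Crypts hold the stem cells, dividing progenitors and Paneth cells of the small intestine, while villi carry the mature absorptive cells that take up calcium. The 6 genes have unlike products. Wfdc16 belongs to the whey acidic protein family of small secreted proteins. Atoh8 is a basic helix-loop-helix transcription factor. Fam20c is a Golgi kinase that phosphorylates secreted proteins, and Pdgfa is a ligand of platelet-derived growth factor receptor alpha. Cd79b is a signalling subunit of the B cell receptor, and Shroom1 belongs to a family of actin-binding proteins that shape epithelial cells.

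RefSeq promoter windows (build GRCm38.p6, 250 bases before the annotated start) were at hand for 4 of the 6 genes, 5 windows in all. The hexamer searched on both strands was AGGTCA, the usual unit of such an element. AGTTCA was allowed in its place. So was GGGTCA, the form with a leading G. GGTTCA was the last form allowed. A direct repeat was any pair of these on the same strand with a spacer of 3 bases. None of the 5 windows held the repeat, against 0.0396% of all 32851 windows of the same length. A single such hexamer was found in 1 of the 5 windows and in 38.6% of all windows. These letters may lie elsewhere, since only this short stretch was read. Base composition set the windows apart: Wfdc16 had 33.6% G and C with 1 CpG, Atoh8 63.2%, the 2 Pdgfa windows 66.4% and 72.4%, and Fam20c 81.2% with 41 CpG, against a median of 52.4%. The Wfdc16 window (chr2:164638803-164639052, minus strand) and the Fam20c window (chr5:138754831-138755080, plus strand) are shown as the ends of that range, and the Pdgfa window (chr5:138994282-138994531, minus strand) because it holds the hexamer, in capitals as its reverse complement.
Wfdc16: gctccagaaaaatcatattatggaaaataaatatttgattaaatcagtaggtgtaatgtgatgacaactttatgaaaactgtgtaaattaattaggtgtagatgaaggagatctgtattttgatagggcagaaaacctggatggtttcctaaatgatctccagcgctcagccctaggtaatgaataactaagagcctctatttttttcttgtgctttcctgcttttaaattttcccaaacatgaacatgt
Fam20c: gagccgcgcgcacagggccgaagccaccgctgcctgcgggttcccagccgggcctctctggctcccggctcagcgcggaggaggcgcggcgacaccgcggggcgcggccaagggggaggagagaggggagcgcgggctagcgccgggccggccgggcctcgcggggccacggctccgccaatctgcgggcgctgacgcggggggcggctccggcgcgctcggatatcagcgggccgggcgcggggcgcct
Pdgfa: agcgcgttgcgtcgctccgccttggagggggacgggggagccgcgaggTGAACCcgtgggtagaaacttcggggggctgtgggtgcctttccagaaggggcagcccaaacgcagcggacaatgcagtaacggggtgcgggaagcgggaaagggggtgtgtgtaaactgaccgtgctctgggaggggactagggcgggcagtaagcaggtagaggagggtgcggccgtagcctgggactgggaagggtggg

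Levels are given as FPKM, fragments scaled to transcript length and library size, in which genes can be compared per length. A fold is the difference of mean log2(FPKM + 0.5) between hormone and vehicle libraries, with its standard error (SE) from limma. The 0.5 shrinks the fold of genes under about 1 FPKM, which covers most of these genes in villi. Each tissue was normalised on its own, so levels across tissues are a description. Total reads recovered from the tables were 13.8 M to 17.5 M per library. Cyp24a1, the hormone-degrading enzyme and the usual sign of receptor activity, stood at 0.184 to 7.35 FPKM in vehicle crypts and 2516 to 4487 after the hormone. Its groups did not overlap in villi (0.0548 to 62.2 against 1898 to 4651) or in colon (0.114 to 64.7 against 403 to 3275). Crypt libraries carried the markers they should: summed stem and cycling cell markers were 339 to 522 FPKM in crypts and 55.9 to 119 in villi. Enterocyte markers did not part as cleanly. Their sum in vehicle crypt libraries 5 and 6 was 41855 and 50287 FPKM, within the villus range of 36298 to 62627, while the other vehicle crypt libraries lay between 6085 and 19844. Hormone-treated crypt libraries lay between 7167 and 30246. In whole tissue fractions, more cells of a type and more RNA per cell cannot be told apart.

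In crypts all 6 genes were low in vehicle libraries and higher in every hormone library than in any vehicle library. Groups that part in this way made up 0.924% of the genes with any reads in crypts, but the 6 were picked for this contrast and the share says nothing about them. On the scale above their folds ranked between 5 and 23 of 10733 genes that passed a filter of 1 FPKM in 6 libraries. Fam20c, Atoh8 and Shroom1, like Cd79b and Pdgfa, had fewer than 6 vehicle libraries at that level and entered through their hormone-treated libraries. In villi only Shroom1 passed the filter, and in colon Atoh8 and Cd79b did. The plot of FPKM by library shows each value.

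**Figure D1:**
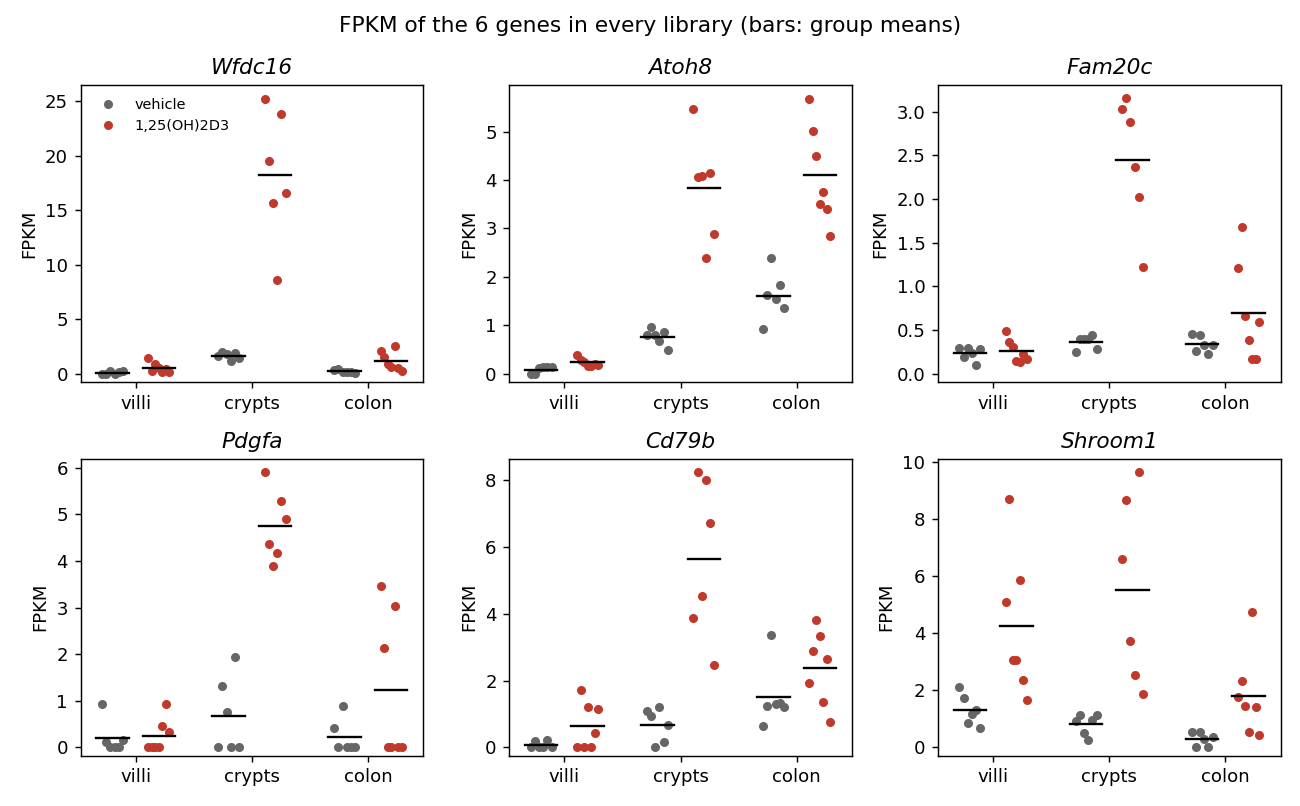
FPKM of the 6 genes (vertical axis, linear, own scale per panel) in each library of villi, crypts and colon, vehicle in grey and 1,25(OH)2D3 in red, with bars for group means. In crypts the red points lie above all grey points in every panel, while in colon this holds for Atoh8 alone.

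Wfdc16, the secreted whey acidic protein relative, had the largest crypt response. Vehicle crypts ran from 1.17 to 1.96 FPKM with a median of 1.74, and hormone-treated crypts from 8.60 to 25.2 with a median of 18.0. The mean went from 1.65 ± 0.302 to 18.2 ± 6.07 FPKM (SD, n = 6 each), 11.0 times, with a log2 fold of 3.06 ± 0.22 (SE). In reads this is 19 to 30 per vehicle library and 130 to 410 per hormone-treated library. Vehicle libraries were tightly grouped, and library 4 was the lowest of the treated ones. In villi the gene was close to the detection limit, with 0 to 4 reads in vehicle and 2 to 22 in treated libraries. The villus means were 0.101 and 0.522 FPKM, and 4 of 7 treated libraries exceeded all vehicle libraries. The colon lay between: vehicle libraries held 0.0754 to 0.448 FPKM (median 0.173) and treated ones 0.230 to 2.50 (median 0.895), with 6 of 7 above every vehicle library.

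Atoh8, the transcription factor, was the only one of the 6 whose colon groups did not overlap. Its colon libraries ran from 0.932 to 2.38 FPKM (median 1.58) with vehicle and from 2.85 to 5.68 (median 3.75) with the hormone. The mean rose from 1.61 ± 0.486 (SD, n = 6) to 4.10 ± 1.00 (SD, n = 7), a log2 fold of 1.13 ± 0.18 (SE) with a limma adjusted p of 0.00578 over 11540 genes. It was the 1 member called higher of the 2 that could be tested with the filter, where 0.763% of all tested genes were called higher. Atoh8 had 5 of 6 vehicle colon libraries at 1 FPKM or more, so it passed the filter only with its treated libraries. Without the filter its limma adjusted p was 0.0153, where 0.424% of genes were called higher. The authors' deposited table gives it an adjusted p of 2.32e-06. Leaving out each library in turn kept the limma adjusted p at or below 0.0189. In crypts the mean went from 0.767 ± 0.164 to 3.84 ± 1.08 FPKM (SD, n = 6 each), a log2 fold of 1.75 ± 0.17 (SE), and vehicle libraries reached 0.967 where the lowest treated one was 2.39. After the hormone, crypts and colon thus held similar levels: the authors' deposited comparison of treated colon with treated crypts gives a log2 difference of 0.02 ± 0.22 (their SE). In villi the levels were a small fraction of these, 0 to 0.132 FPKM with vehicle and 0.148 to 0.390 with the hormone. Even there all 7 treated libraries exceeded all 6 vehicle libraries in FPKM, on 19 reads in all against 56. Groups parted in FPKM in this way for 1.09% of genes with reads in villi and 0.501% in colon. In recovered reads the villus groups met, at 0 to 5 per vehicle library and 5 to 14 per treated library.

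Fam20c, the kinase of the secretory pathway, was the member with the least villus response beside a clear crypt one. Vehicle crypts ran from 0.252 to 0.444 FPKM (median 0.394), and treated crypts from 1.22 to 3.15 (median 2.62). The mean went from 0.360 ± 0.0754 to 2.45 ± 0.738 (SD, n = 6 each), 6.79 times, a log2 fold of 1.74 ± 0.18 (SE). Library 6 was the lowest treated crypt library and library 2 the highest. In villi the means were 0.232 and 0.262 FPKM, a log2 fold of 0.05 ± 0.11 (SE) on 5 to 14 reads per vehicle library and 6 to 23 per treated library. In colon, vehicle libraries held 0.228 to 0.449 FPKM and treated ones 0.164 to 1.68. The treated colon libraries spread on both sides of the vehicle range, with libraries 1 and 2 highest at 1.22 and 1.68.

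Pdgfa, the growth factor, had the narrowest spread of the 6 in treated crypts and the least even vehicle values. Treated crypts ran from 3.89 to 5.90 FPKM with a median of 4.63. Vehicle crypt libraries 1, 4 and 6 were listed at 0, while libraries 2, 3 and 5 held 1.32, 0.767 and 1.93, or 22 to 55 reads. An exact 0 beside such values can be a failed estimate, so the crypt fold of 2.47 ± 0.39 (SE) rests on uncertain vehicle values. Set against the highest vehicle library alone, every treated library was still above it. The same mix of zeros was seen elsewhere. In villi 3 of 6 vehicle and 4 of 7 treated libraries were listed at 0, and no treated library exceeded the highest vehicle library at 0.932 FPKM. In colon, treated libraries 1, 2 and 5 held 3.46, 2.13 and 3.04 FPKM, and the other 4 were listed at 0.

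Cd79b, the B cell receptor subunit, ran from 0 to 1.20 FPKM (median 0.802) in vehicle crypts and from 2.46 to 8.22 (median 5.62) in treated crypts. The mean went from 0.678 ± 0.493 to 5.63 ± 2.36 (SD, n = 6 each), a log2 fold of 2.41 ± 0.35 (SE). Libraries 2 and 4 were the highest treated crypt libraries at 8.22 and 7.98. In villi it was listed at 0 in 4 of 6 vehicle and 3 of 7 treated libraries, while the other 4 treated libraries held 0.429 to 1.72 FPKM, above all vehicle libraries. Colon had the highest vehicle level of the gene, 0.651 to 3.35 FPKM (median 1.27), and its treated libraries, at 0.750 to 3.80 (median 2.63), overlapped with that range.

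The levels of other B lineage genes in crypts are given beside those of Cd79b. Cd79a, the partner with which it forms the signalling dimer, averaged 0.224 FPKM in vehicle and 0.144 in treated crypts, with 0.440 as its highest value in any crypt library. Of 15 B cell markers 13 were found, and Ebf1 and Fcer2a were among those at 0 in all crypt libraries. The list summed to 0.539 to 2.10 FPKM in vehicle and 1.53 to 2.26 in treated crypts, less than Cd79b by itself in each treated library. Cd37, a leukocyte tetraspanin and the 1 marker of the list that passed the filter there, was 0.579 and 1.32 FPKM on average, with a log2 fold of 0.89 ± 0.31 (SE), an unadjusted p of 0.0147 and a limma adjusted p of 0.199. A list of 7 plasma cell markers summed to 22.2 to 40.1 FPKM in vehicle and 38.7 to 51.6 in treated crypts. Nearly all of this was Sdc1, a syndecan that epithelial cells also make, at 30.1 and 44.7 FPKM on average (limma adjusted p = 0.0712, and 0.0134 with the block). Sdc1 was called higher in villi, from 14.3 to 24.4 FPKM (limma adjusted p = 0.0136). The other 6 plasma cell markers were under 1 FPKM in every crypt library, with Tnfrsf17 at 0. In colon the B cell list summed to 6.42 to 24.0 FPKM in vehicle and 6.28 to 26.8 in treated libraries, and Cd79a averaged 5.99 and 6.44 FPKM (limma adjusted p = 0.978). The part of these cells in the Cd79b values was not tested.

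**Figure D2:**
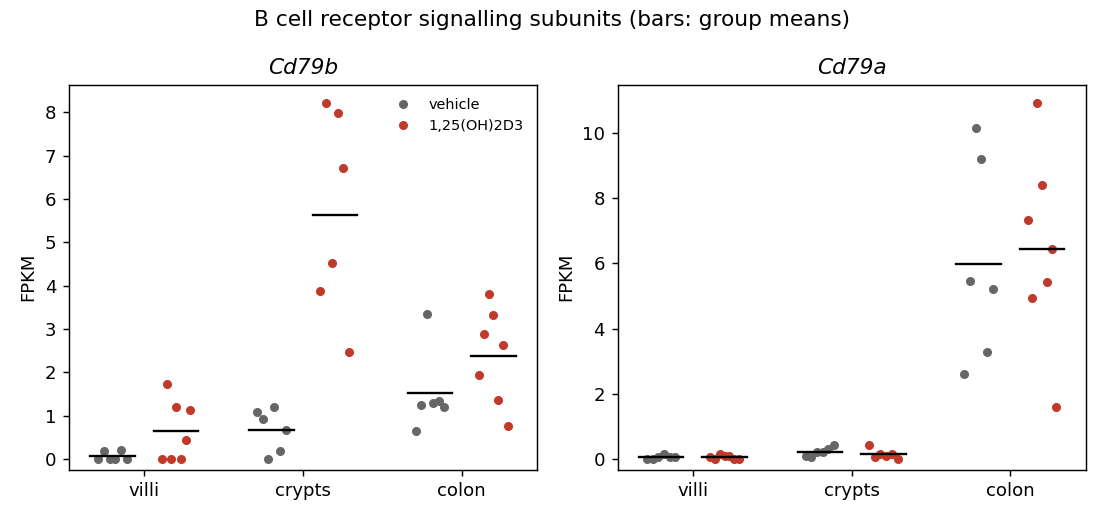
FPKM (vertical axis, linear, own scale per panel) of Cd79b and of its dimer partner Cd79a in each library of the 3 tissues, vehicle in grey and 1,25(OH)2D3 in red, with bars for group means. Treated crypts hold 2.46 to 8.22 FPKM of Cd79b and no more than 0.426 of Cd79a, whereas colon holds both.

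Shroom1, the actin-binding protein, had the largest villus gain of the 6, 2.94 FPKM on average. Vehicle villi ran from 0.695 to 2.12 FPKM (median 1.24) and treated villi from 1.65 to 8.71 (median 3.07), with 6 of 7 treated libraries above all vehicle ones. Vehicle crypts ran from 0.260 to 1.15 (median 0.934) and treated crypts from 1.86 to 9.64 (median 5.17). The mean was 3.23 times that of vehicle in villi and 6.72 times in crypts. On the log2 scale the crypt fold was 2.03 ± 0.36 (SE) and exceeded the villus fold by 0.75 ± 0.52 (SE), the smallest such gap of the 6. Treated crypts were also the least even for this gene, with the highest library 5.19 times the lowest. In colon, vehicle libraries held 0 to 0.532 FPKM, 2 of them listed at 0, and treated ones 0.420 to 4.74 (median 1.44), with 6 of 7 above all vehicle libraries.

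The 4 members under the filter in colon were tested without it, over 18161 genes, where 0.424% were called higher. None of the 4 passed: the limma adjusted p was 0.226 for Wfdc16, 0.200 for Shroom1, and 0.859 for both Fam20c and Pdgfa. Their log2 folds were 1.10 ± 0.30, 1.40 ± 0.37, 0.39 ± 0.26 and 0.78 ± 0.60 (SE, 6 against 7 libraries). The unadjusted p was 0.00277 for Wfdc16 and 0.00222 for Shroom1. The authors' deposited table, in which 1.37% of genes with an adjusted p were called higher, gives 0.0176 for Wfdc16, 0.0574 for Shroom1, 0.477 for Fam20c and 0.838 for Pdgfa. Wfdc16 is thus called in their table and not here. Cd79b passed the filter and was not called, at 0.51 ± 0.31 (SE) with a limma adjusted p of 0.791 and 0.657 in their table. Treated colon libraries 1 and 2 stood apart in summed smooth muscle markers, at 3304 and 12124 FPKM against 19.1 to 508 in all other colon libraries, and in fibroblast markers, at 173 and 487 against 8.82 to 102. Without both, the log2 fold was 0.06 ± 0.16 for Fam20c and 0.17 ± 0.54 for Pdgfa, while Atoh8 kept 0.98 ± 0.18 with a limma adjusted p of 0.0334. Wfdc16 and Shroom1 stayed at 0.87 ± 0.31 and 1.25 ± 0.43.

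How far the rise is a crypt matter depends on the scale. On log2(FPKM + 0.5) the crypt fold exceeded the villus fold by 2.38 ± 0.39 for Wfdc16, 2.38 ± 0.68 for Pdgfa, 1.69 ± 0.29 for Fam20c, 1.64 ± 0.52 for Cd79b and 1.42 ± 0.22 for Atoh8 (SE over 38 libraries). Over colon it was larger by 1.96 ± 0.39 for Wfdc16, 1.90 ± 0.52 for Cd79b, 1.69 ± 0.68 for Pdgfa, 1.35 ± 0.29 for Fam20c, 0.64 ± 0.52 for Shroom1 and 0.62 ± 0.22 for Atoh8. The authors' deposited log2 folds carry no such offset. They put Cd79b at 3.05 ± 0.56 in crypts and 3.28 ± 1.60 in villi, a difference of -0.23, and the ratio of mean FPKM was likewise 8.30 in crypts and 9.66 in villi. They put Shroom1 at 2.75 ± 0.44 in crypts and 2.66 ± 0.81 in colon, and Pdgfa at 2.83 ± 1.17 and 2.48 ± 2.74. They put Wfdc16 at 3.46 ± 0.27 in crypts, only 1.12 above villi and 1.05 above colon, and Atoh8 at 2.32 ± 0.25, only 0.87 above villi and 0.97 above colon. For Fam20c their crypt fold was 2.76 ± 0.28 and their villus fold 0.17 ± 0.42. In amount the order was the same for all 6: the mean gained 2.09 to 16.6 FPKM in crypts and 0.0297 to 2.94 in villi. Among treated libraries the authors' deposited comparison puts crypts over villi by 4.63 ± 0.45 for Wfdc16, 3.78 ± 0.89 for Pdgfa, 3.56 ± 0.30 for Atoh8, 2.73 ± 0.34 for Fam20c and 2.64 ± 0.85 for Cd79b on the log2 scale. For Shroom1 it gives -0.12 ± 0.43, while its treated means were 5.51 FPKM in crypts and 4.26 in villi. The headers of these comparisons do not say which tissue comes first. In the order used here, signs matched those of the FPKM means for 76.3% of genes in crypts and villi, and for 94.8% in colon and crypts.

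**Figure D3:**
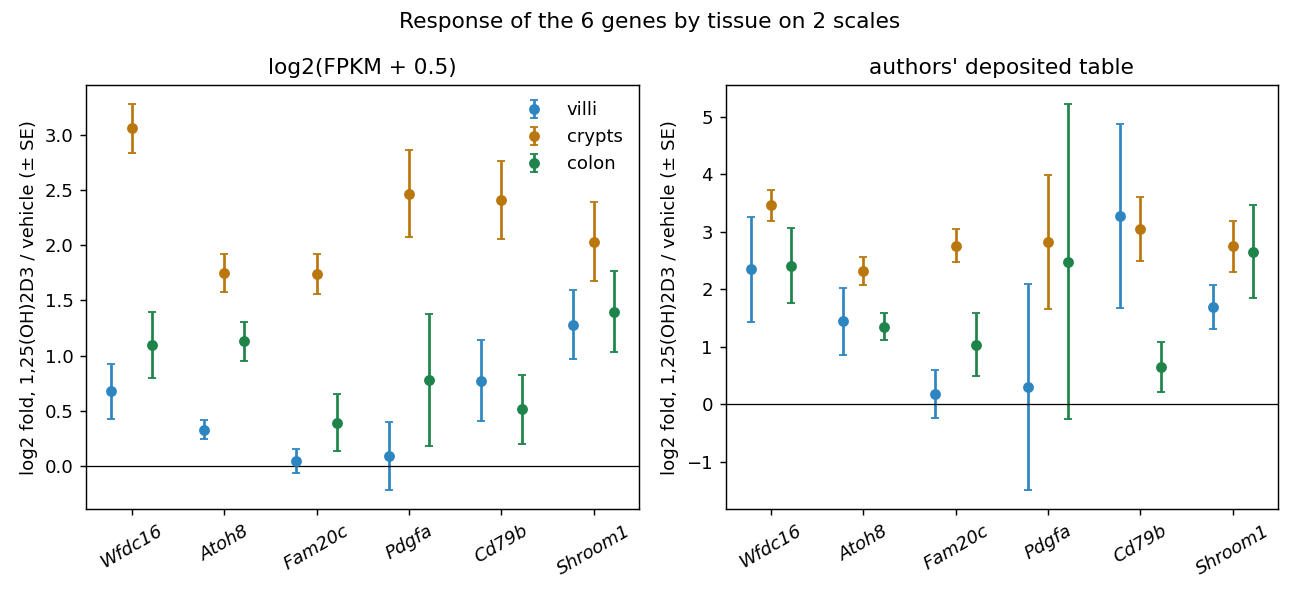
Log2 fold of 1,25(OH)2D3 over vehicle (vertical axis, points with SE bars) of the 6 genes in villi, crypts and colon, on log2(FPKM + 0.5) at left and from the authors' deposited table at right. The crypt point is the highest of each gene at left, and at right the villus point of Cd79b, 3.28, lies above its crypt point, 3.05.

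The 6 genes did not rank the treated crypt libraries alike. Library 1 was the highest for Wfdc16, Atoh8 and Pdgfa, library 2 for Fam20c and Cd79b, and library 5 for Shroom1. Library 6 was the lowest for Fam20c, Cd79b and Shroom1, library 4 for Wfdc16 and Atoh8, and library 3 for Pdgfa. Treated crypt library 6 also had the largest enterocyte marker sum of its group, 30246 FPKM, and its part in these values was not tested. The crypt folds differed little without vehicle libraries 5 and 6, those with high enterocyte sums: Wfdc16 was at 3.06 ± 0.27, Pdgfa 2.58 ± 0.36, Cd79b 2.28 ± 0.42, Shroom1 2.18 ± 0.45, Fam20c 1.74 ± 0.21 and Atoh8 1.69 ± 0.20 (SE). Treated crypt libraries 5 and 6, with the largest enterocyte sums of their group at 18221 and 30246 FPKM, stayed in. In the labels, crypt libraries 5 and 6 of both groups carry names of another style than the other crypt libraries. Naming style and enterocyte sum thus go together in crypts, and their parts were not tested.

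Fam20c and Pdgfa lie close together on chromosome 5, with 1 annotated protein-coding gene, Gm5294, between them. Gm5294 was at 0.0225 FPKM in vehicle and 0.214 in treated crypts, under the filter. The nearest genes beyond the pair that passed the filter, A430033K04Rik on the Fam20c side and Dnaaf5 on the Pdgfa side, had crypt folds of 0.37 ± 0.16 and 0.0043 ± 0.27 (SE; limma adjusted p = 0.302 and 0.995). A430033K04Rik was called in villi, from 1.42 to 2.35 FPKM (limma adjusted p = 0.0467, and 0.134 with replicate numbers as a block), and of the 13 libraries left out singly the call held without vehicle 3 or 4 only. Wfdc16 lies in a run of family genes on chromosome 2. The next gene but 1, Wfdc10, was the nearest neighbour with a sizeable level, from 2.09 to 7.38 FPKM in vehicle crypts (mean 4.29) and from 3.88 to 24.4 in treated crypts (mean 16.2). Its log2 fold was 1.72 ± 0.40 (SE) with a limma adjusted p of 0.0550, which became 0.0189 with the block, and 0.00052 in the authors' deposited table. Treated library 4, at 3.88 FPKM, was its only treated library inside the vehicle range, and without it the limma adjusted p was 0.00231. Leaving out vehicle library 4 gave 0.0331, a setting in which 1065 crypt genes were called against 157 with all libraries. For Wfdc10, 10 of the 12 single libraries left out kept the limma adjusted p over the threshold, up to 0.138. It was 0.439 in the libraries with plain file names only, and 0.210 without vehicle crypts 5 and 6 together. Wfdc9, between Wfdc16 and Wfdc10, was at 0.0270 and 0.417 FPKM, and the other neighbours of Wfdc16 stayed at or under 0.122 in crypts. Reads that these related genes could share were not examined. Beside Atoh8, Cd79b and Shroom1 no gene among the 3 on each side that the tables hold was called in any tissue.

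**Figure D4:**
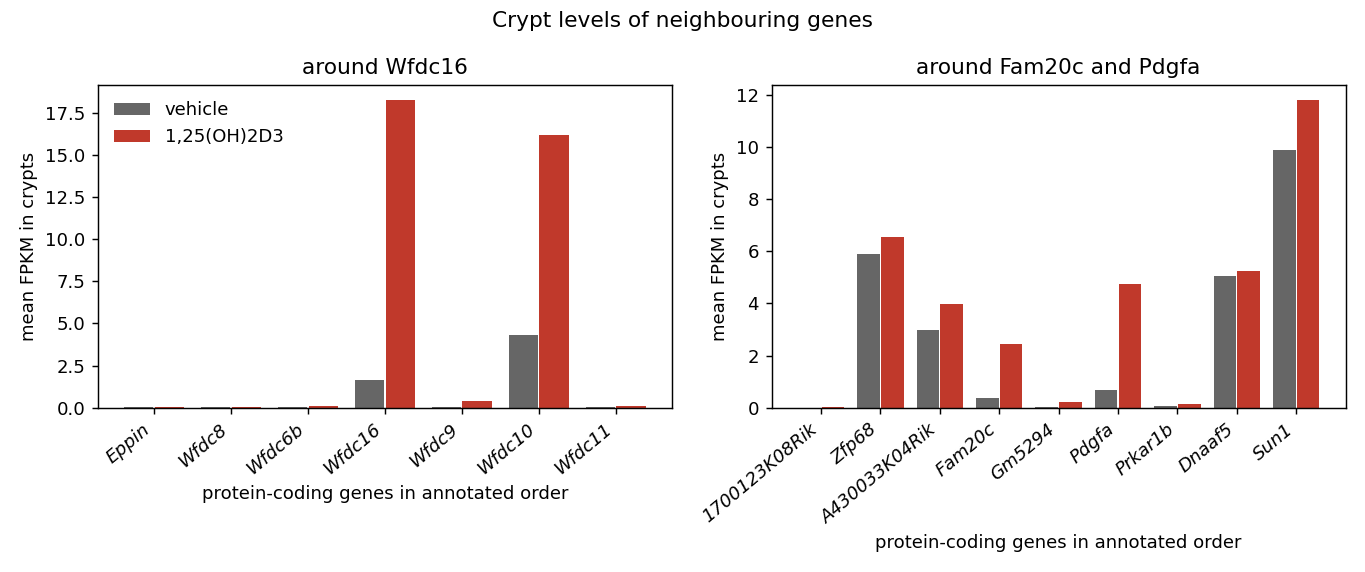
Mean FPKM in crypts (vertical axis, linear from 0) of protein-coding genes in annotated order around Wfdc16 (left) and around Fam20c and Pdgfa (right), vehicle in grey and 1,25(OH)2D3 in red. Wfdc10 goes from 4.29 to 16.2 FPKM beside Wfdc16, while Gm5294 between Fam20c and Pdgfa stays at or below 0.214.

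Few relatives of the 6 genes were called. Over all genes limma called 2.47% in villi, 1.46% in crypts and 0.823% in colon. Of 20 other whey acidic protein genes, 3 could be tested in crypts and 4 in colon, and none was called. Wfdc2, the most abundant, averaged 272 and 255 FPKM in colon (limma adjusted p = 0.919). Among 14 basic helix-loop-helix factors and their inhibitors, 1 of 9 tested in villi fell: Id2, a dominant-negative partner of such factors, from 65.3 to 41.4 FPKM, a log2 fold of -0.66 ± 0.12 (SE, limma adjusted p = 0.00595, but 0.0722 in the libraries with plain file names only). None of 12 was called in crypts or in colon. With the block Id2 at -0.61 and Id3 at 0.67 passed in crypts, both at a limma adjusted p of 0.0298. Of 19 genes of the bone morphogenetic protein pathway, of which Atoh8 is a known target in other cell types, the receptor Acvr1 was called higher in villi, from 4.45 to 9.44 FPKM, and in crypts, from 5.84 to 8.87 (limma adjusted p = 0.0139 and 0.0321, but 0.0888 and 0.325 in plain-named libraries). It was 1 of 10 tested in villi and 1 of 11 in crypts. Its crypt call was lost when any 1 of 8 libraries was left out, up to 0.0904, and held without vehicle 3 or 4 or treated 1 or 4; without vehicle 5 and 6 together the adjusted p was 0.132. None of 13 was called in colon, where Acvr1 averaged 6.93 and 9.78 FPKM (limma adjusted p = 0.0982).

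Of 10 kinases of the secretory pathway other than Fam20c, its partner Fam20a rose in villi, 1 of 5 tested, from 19.3 to 27.2 FPKM (limma adjusted p = 0.0145, but 0.103 in plain-named libraries), and the related Pkdcc rose in colon, 1 of 5 tested, from 35.3 to 55.0 (limma adjusted p = 0.0487). The Pkdcc call held in 3 of 13 cases with 1 library left out, without vehicle 5, treated 2 or treated 7, and was lost in the others, up to 0.139, and without treated 1 and 2 together, at 0.111. None of the 6 kinases tested in crypts was called. No tested gene among 10 reported Fam20c substrates was called, with 2, 2 and 3 tested in villi, crypts and colon. The most abundant substrate, the oxidoreductase Ero1l, averaged 19.6 and 16.6 FPKM in crypts (limma adjusted p = 0.378). For Pdgfa, none of the 5 other ligands and receptors was called, with 2, 1 and 3 tested in villi, crypts and colon. Its receptor gene Pdgfra, which marks gut mesenchyme, was at or below 0.0103 FPKM in every crypt library, and Pdgfb, the related ligand, averaged 5.64 and 3.94 FPKM there (limma adjusted p = 0.196). The fibroblast markers other than Fbln1 each averaged at or below 0.0811 FPKM in crypts, and Fbln1 averaged 21.3 and 32.6 (limma adjusted p = 0.327). None of 10 hedgehog ligands and targets was called, with 1, 4 and 6 tested in villi, crypts and colon. Ihh, the epithelial ligand, averaged 30.6 and 28.5 FPKM in crypts (limma adjusted p = 0.767).

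Of 14 genes of B cell receptor signalling none was called, with 7, 7 and 10 tested in villi, crypts and colon. The kinase Syk, listed in the tables as Sykb, averaged 3.35 and 5.42 FPKM in crypts with a limma adjusted p of 0.126, or 0.0157 with the block, and the adaptor Blnk averaged 32.5 and 29.0. None of 12 genes of the Shroom family and the apical actomyosin they act on was called. Tested were 9 in villi, 9 in crypts and 10 in colon. The myosin light chain Myl12b averaged 584 and 489 FPKM in crypts (limma adjusted p = 0.412).

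Likeness was measured over 38 libraries as the root mean square difference of log2(FPKM + 0.5) after subtracting each tissue's vehicle mean, among 11990 genes, as a description. These values hold the crypt and villus responses used to pick the members, so nearness between members is partly fixed by that choice. The nearest gene to Wfdc16 was 2610042L04Rik at 0.51 (median over all genes 1.45), with folds of 0.95, 2.56 and 1.27 in villi, crypts and colon, followed by Atoh8 and Lrrc26, a potassium channel subunit. Atoh8 was nearest to the keratin Krt7 at 0.33, with folds of 0.81, 1.54 and 1.21, then to A430107O13Rik and Mctp2. Fam20c was nearest to Car8, a carbonic anhydrase relative, at 0.44, with folds of 0.16, 0.94 and 0.46, then to Atoh8 and A430107O13Rik. Pdgfa had only members as its 3 nearest genes, Wfdc16 at 0.82, Atoh8 and Fam20c, at distances larger than those of the other 5 to their nearest genes. Cd79b was nearest to Lrrc26 at 0.67, then to Nkain1 and Inpp5j. Shroom1 was nearest to Slc39a8, a zinc and manganese transporter, at 0.52, with folds of 1.11, 1.56 and 1.15, then to Ttc39b and Lrrc26. Lrrc26, at 1.04, 1.83 and 1.13, was near 3 of the 6, and Atoh8 near 3.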

How the data were processed

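RNA from 38 libraries of villi, crypts and colon was sequenced. The authors deposited one FPKM table per tissue and tables of their own comparisons with log2 fold changes, p-values, mean signal (baseMean) and a test statistic given as a score, per the file headers. Kallisto 0.45.0, DESeq 1.28.1, DESeq2 and build mm9 are named per the submitters' processing notes, without their order. Read numbers were recovered by multiplying each FPKM by the gene's baseMean over its mean FPKM and by a factor per library. That factor was fitted to bring small values near whole numbers. After the fit, 77.9% to 91.5% of values under 30 reads lay within 0.05 of a whole number, which is thus no independent check. Values were tested within each tissue as log2(FPKM + 0.5) with limma 3.58.1 (R 4.3.3; trended empirical Bayes), for genes at 1 FPKM or more in at least 6 libraries, with Benjamini-Hochberg adjustment over all genes tested and a threshold of 0.05. The script was tested on simulated data. Replicate numbers come from the labels, which state no pairing. Same-numbered vehicle and treated libraries correlated at 0.102 to 0.465 in villi and 0.119 to 0.545 in crypts. For vehicle villi 1, 3 and 5 and vehicle crypts 1, 2 and 5, a treated library of another number correlated more. The pairing is thus uncertain, and blocked values are given for some named genes of villi and crypts whose call they change. Family genes of colon called with the block only are not named. They were 1 basic helix-loop-helix gene, lower, and 1 gene each, higher, of the bone morphogenetic protein pathway, the reported Fam20c substrates and B cell receptor signalling. Genes named were the 6 members, related genes called in any tissue with the most abundant ones, 3 neighbours on each side, 3 nearest genes and Cyp24a1. The members and gene lists were chosen with earlier results of these data known. Alternatives were other offsets, no filter, the block, each library left out, the libraries with plain file names only, that naming as a covariate, no trend and the authors' tables.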

Additional observations from a re-analysis of the deposited data

Results flagged for a closer look

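Among 36 sets of libraries (6 genes in 6 groups), 2 held 1 value far from the rest of its group; chance sets apart about 1 in 20. Cd79b was at 3.35 FPKM in vehicle colon library 3, while the other 5 lay between 0.651 and 1.33. That library also had the largest B cell marker sum (24.0 FPKM) and smooth muscle marker sum (508 FPKM) of the vehicle colon libraries; their part in the value was not tested. Without it the Cd79b colon fold was 0.72 with a limma adjusted p of 0.552. Pdgfa was at 0.932 FPKM in vehicle villus library 1, while the other 5 lay between 0 and 0.156. Without it the Pdgfa villus fold was 0.32.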

How the results depend on the processing

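The 6 members were picked for a larger rise in crypts than in villi, so how many of them keep it is a description and no test. All 6 kept a larger crypt than villus fold under every offset and every single library left out. By the difference of the authors' folds, an alternative added after seeing the data, 5 of 6 did, with Cd79b at -0.23. In colon 1 member was called under every limma alternative and 2 in the authors' table. Genes called in crypts numbered 157 (121 higher), 444 with the replicate block, 391 with naming style as a covariate, 84 in plain-named libraries, 103 without vehicle libraries 5 and 6 (added later), 550 in the authors' table (308 higher), and 107 to 1065 with 1 library left out, the most without vehicle 4. In villi they numbered 240, 97 in plain-named libraries, 436 in the authors' table and 176 to 223 with 1 left out. In colon they numbered 95, 147 with the replicate block, 58 without treated libraries 1 and 2 (added later) and 246 in the authors' table. With 1 colon library left out they ran from 66 to 141. Same-numbered colon libraries correlated at 0.0569 to 0.572. Only vehicle colon 4 correlated most with the treated library of its own number. The cause of these shifts in the number called was not tested. The villus fold of Fam20c ran from -0.021 to 0.086 with 1 library left out, being -0.0091 without vehicle 5, and that of Pdgfa from -0.087 to 0.32, or -0.45 in plain-named libraries. Depth limits the villus values, which rest on under 30 reads per library for every member but Shroom1.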
